A study of Mus musculus with 16 samples.

Results

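The genes described here are 10 regulators of the Notch pathway and of the secretory lineage of the gut: the ligands Dll1, Dll4 and Jag1, the receptor Notch1, the effector Hes1, and the transcription factors Atoh1, Gfi1, Spdef, Foxa3 and Klf4. They were picked by symbol from the 24421 genes of the deposited expression table, and all 10 were found and passed the filter on low values. RNA had been sequenced from whole colon of C57BL/6 mice of 8 weeks in 16 libraries, 4 in each of 4 groups. F/F mice carried the NCoR1 F/F genotype, which the labels also call wild type, and DIEC mice lacked NCoR1, a corepressor of nuclear receptors, in intestinal epithelial cells; the sources used here do not name the driver of that deletion. Mice of each genotype drank water (F/F naive, DIEC naive) or 2.5% dextran sulfate sodium (DSS), which injures the colon lining (F/F DSS, DIEC DSS), with RNA taken on day 3. Each library pooled the RNA of 3 mice, so a spread given below is the spread between pools. Ncor1 lay between 3445 and 4078 in the F/F libraries and between 1343 and 1979 in the DIEC libraries, with no overlap.

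In the colon crypt, Notch ligands on one cell bind Notch receptors on its neighbour, and gamma-secretase then cuts the receptor so that its inner part joins RBPJ in the nucleus and switches on genes such as Hes1. HES1 represses Atoh1, the factor that commits a progenitor to the secretory lineage, and cells that escape Notch signalling go on through GFI1, SPDEF, FOXA3 and KLF4 to goblet and other secretory fates. Notch1, Dll4 and Jag1 are also made by endothelium, and Klf4 by absorptive cells near the surface.

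A value is the reads of a gene divided by 1 factor per library, on the scale the authors deposited, and a change is a difference of log2(value + 1) with its standard error from limma, called where the Benjamini-Hochberg adjusted p over all 18267 genes tested was under 0.05. The libraries held 19957413 to 34733832 reads on genes, and each of the 10 genes had between 159 and 22837 reads in every library. Rescaling by TMM, which assumes that most genes do not change, shifted the median gene by 0.10 in the DSS change of F/F, 0.25 in that of DIEC, 0.04 for the deletion in naive colon, 0.19 for the deletion in DSS colon and 0.15 in the difference of the 2 DSS changes (all log2, upward). Calls that this ends are named beside their result. The library DIEC DSS 3 stood apart on the second principal component, at -60.4 against -17.2 to 8.6 for the others of its group, and calls of the 10 genes that rest on that group are also given without it. In whole tissue, fewer cells of a type and less RNA per cell cannot be told apart.

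Per kilobase of exon, the 10 genes spanned a wide range of levels. In F/F naive colon Klf4 was highest, at 3452.6 ± 488 per kb (SD, n = 4), and its 4 libraries lay above those of every other gene. Spdef (1204.6 ± 224), Hes1 (924 ± 73.2) and Atoh1 (858 ± 81.5) followed, with overlap between each and the next, and then Foxa3 (638 ± 66.0), below Atoh1 in all libraries. The ligands Dll1 (135 ± 34.8) and Dll4 (128.5 ± 12.4) and the factor Gfi1 (120.3 ± 18.2) overlapped in level, and Notch1 (90.8 ± 5.57) and Jag1 (86.0 ± 12.6) came last and overlapped with each other. In DIEC DSS colon Notch1 was last, at 42.5 ± 11.2 per kb, and its libraries still overlapped those of Jag1 (58.7 ± 8.53). Klf4 was first in all 4 groups, and the 5 genes Klf4, Hes1, Atoh1, Spdef and Foxa3 were the first 5 in each.

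**Figure D1:**
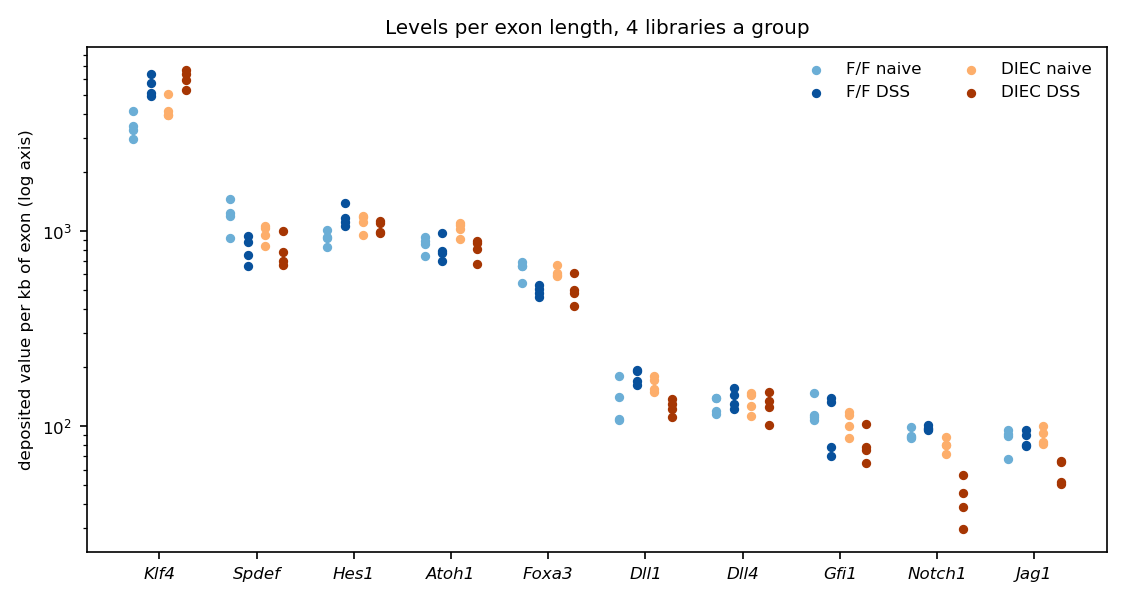
Deposited value per kilobase of exon (log axis) of the 10 genes, each point a library, 4 libraries in each of the 4 groups. Klf4 stood highest in every group, and the Notch1 mean went from 79.9 per kb in DIEC naive to 42.5 in DIEC DSS.

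The promoter letters of 4 of the genes are shown because Notch1 and Jag1 carried the lower levels in DIEC DSS colon, Klf4 the rise with DSS in both genotypes, and Atoh1 is the gene that HES1 acts on. Each window is the 250 bases before the RefSeq transcription start in GRCm38.p6, written 5′ to 3′ along the gene. It lies at chr2:26503823-26504072 (minus strand) for Notch1, chr2:137116521-137116770 (minus) for Jag1, chr6:64728875-64729124 (plus) for Atoh1 and chr4:55532476-55532725 (minus) for Klf4. Capitals mark matches on either strand to CACGNG (the class C site of HES proteins), CAGCTG (an E box of the ATOH1 kind) or GGGCGG (a GC box).
Notch1: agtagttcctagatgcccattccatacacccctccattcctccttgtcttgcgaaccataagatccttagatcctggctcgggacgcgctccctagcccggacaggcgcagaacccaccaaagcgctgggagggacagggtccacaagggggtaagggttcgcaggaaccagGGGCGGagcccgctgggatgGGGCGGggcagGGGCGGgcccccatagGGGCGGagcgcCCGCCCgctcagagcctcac
Jag1: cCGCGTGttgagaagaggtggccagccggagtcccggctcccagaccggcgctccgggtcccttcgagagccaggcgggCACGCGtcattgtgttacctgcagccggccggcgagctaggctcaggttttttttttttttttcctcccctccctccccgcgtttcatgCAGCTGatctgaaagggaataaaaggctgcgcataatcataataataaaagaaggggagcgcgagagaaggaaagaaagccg
Atoh1: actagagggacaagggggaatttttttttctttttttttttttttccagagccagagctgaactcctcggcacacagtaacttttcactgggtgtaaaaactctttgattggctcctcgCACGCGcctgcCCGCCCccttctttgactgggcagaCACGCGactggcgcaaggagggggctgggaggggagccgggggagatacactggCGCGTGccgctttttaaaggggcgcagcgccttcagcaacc
Klf4: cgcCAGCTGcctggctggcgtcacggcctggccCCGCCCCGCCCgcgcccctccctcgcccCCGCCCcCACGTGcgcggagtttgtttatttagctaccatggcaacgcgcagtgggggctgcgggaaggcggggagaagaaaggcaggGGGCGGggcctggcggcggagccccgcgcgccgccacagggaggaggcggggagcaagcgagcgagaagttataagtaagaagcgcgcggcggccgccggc

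The Notch1 window held 5 GC boxes and no match to the other motifs, the Jag1 window 2 class C matches and 1 E box, and the Atoh1 window 3 class C matches and 1 GC box. The Klf4 window held 4 GC boxes, the first 2 sharing a base, 1 match to CACGNG and 1 E box of the ATOH1 kind. That match to CACGNG is the palindrome CACGTG, and it is counted below with the class C letters. A window was found for 9 of the 10 genes, 11 windows in all, and Hes1 had none. Class C letters occurred in 6 of the 11 windows (those of Atoh1, Dll4, Jag1 and Klf4 and both of Dll1) and in 23.5% of all 32851 windows. GC boxes occurred in 5 of the 11 (Atoh1, Dll4, Foxa3, Klf4 and Notch1) against 32.7% of all windows, and the E box in 3 (Dll1, Jag1 and Klf4) against 13.0%. The RBPJ letters GTGGGAA were in none of the 11 windows and in 5.42% of all, and AGGTCA, a nuclear receptor half-site, was in a Dll1 window and in 14.0% of all. These are matches of letters only, and the data hold no measure of binding.

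In F/F colon, DSS raised Klf4, Dll1 and Hes1 and lowered Spdef and Foxa3. Thus 3 of the 10 genes were called higher and 2 lower, where 44.8% of all genes tested were called (16.3% higher and 28.5% lower), so the count of 5 stands near the background. The median change of the 10 genes was 0.06, against -0.11 over all genes. In DIEC colon, DSS raised Klf4 and lowered Notch1, Jag1, Dll1, Atoh1 and Foxa3, that is 1 higher and 5 lower, where 52.3% of all genes were called (12.3% higher and 40% lower). Their median change was -0.33, against -0.24 over all genes. After TMM rescaling only Klf4, Notch1 and Jag1 of these 6 were still called, where 51.3% of all genes were. The 5 calls in F/F were kept after rescaling, where 45.3% of all genes were called. Over all genes, falls outnumbered rises on the deposited scale, where higher calls made up 36.4% of all calls in F/F and 23.6% in DIEC. After rescaling the shares were 50.3% and 48.8%. TMM assumes that most genes do not change, so these shares cannot tell which scale is nearer the tissue. Groups of naive and DSS libraries did not overlap for 3 of the 10 genes in F/F and 5 in DIEC, where 42.8% and 45.5% of all genes did not.

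The deletion alone gave no call among the 10 genes in naive colon by limma, edgeR or DESeq2, where limma called 2.23% of all genes (1.41% higher) and 2.44% after TMM rescaling. At an unadjusted p under 0.05 limma had 4, Hes1, Klf4, Atoh1 and Dll1, all with higher values in DIEC (adjusted p from 0.18 to 0.28). In no case were the groups apart, where 10.7% of all genes had groups that did not overlap. In DSS colon the deletion lowered Notch1, Jag1 and Dll1, 3 of 10, where 29.3% of all genes were called (3.28% higher and 26% lower). The groups did not overlap for those 3 genes, where 25% of all genes did not. The median change of the 10 genes was -0.14, against -0.2 over all genes. After TMM rescaling Notch1 and Jag1 were called, where 14% of all genes were, and the share of higher calls among all calls went from 11.2% to 47.5%. The DSS change differed between genotypes for Notch1 and Dll1, both downward, where 3.63% of all genes were called (0.29% upward and 3.34% downward). Notch1 was the one called after rescaling, where 0.64% of all genes were, and the share of higher calls went from 7.98% to 40.2%.

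**Figure D2:**
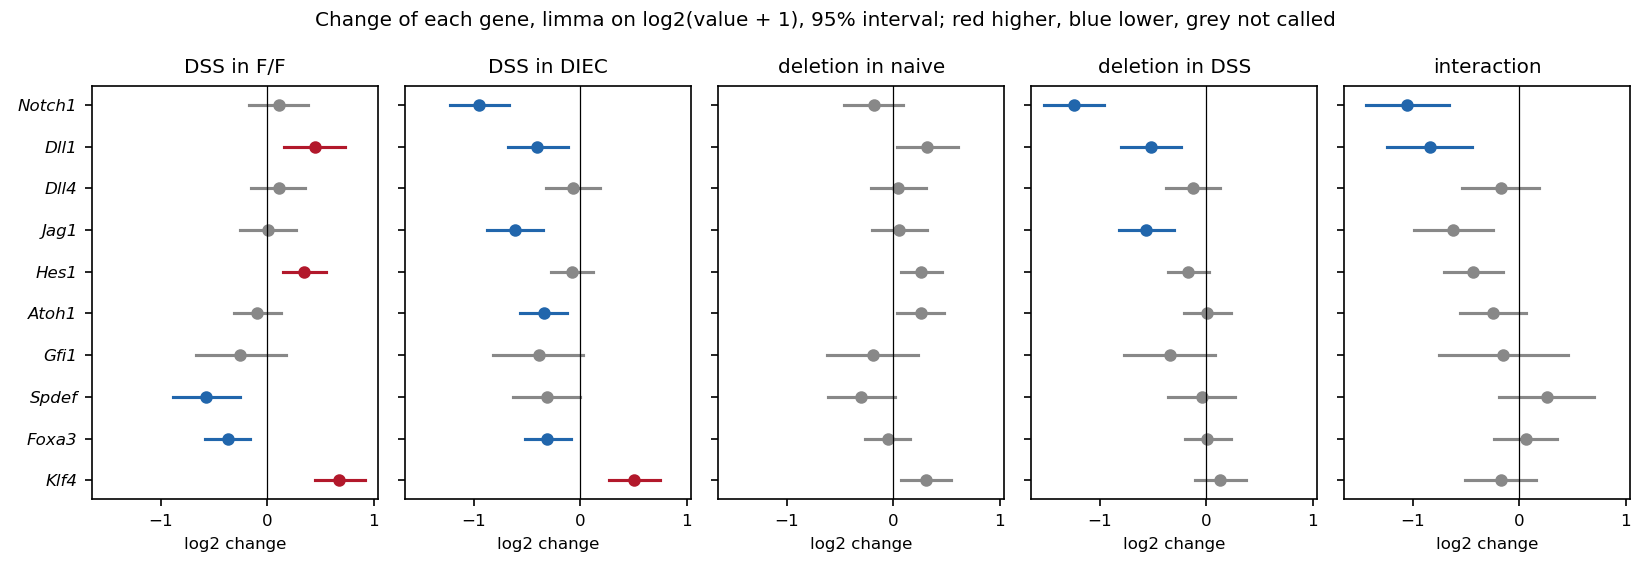
Change of the 10 genes (difference of log2(value + 1)) in the 5 comparisons, with points for limma's estimate, lines for its 95% interval, and red, blue and grey for higher, lower and not called. The interaction is the DSS change in DIEC minus that in F/F, and Notch1 lies furthest below 0 with DSS in DIEC (-0.95), with the deletion in DSS (-1.24) and in the interaction (-1.05).

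Among the ligands, Dll1, the Delta ligand of secretory progenitors, had values of 619, 371, 366 and 483 in F/F naive against 663, 652, 557 and 582 in F/F DSS. The DIEC values were 621, 514, 531 and 587 without DSS and 443, 469, 379 and 418 with it. In F/F the naive libraries reached up into the range of the DSS libraries through F/F naive 1 alone, whereas in DIEC all DSS libraries lay below all naive ones. Dll1 rose with DSS in F/F by 0.45 ± 0.14 (adjusted p = 0.011) and fell by 0.40 ± 0.14 in DIEC (adjusted p = 0.019), and the 2 changes differed by -0.84 ± 0.19 (adjusted p = 0.026). In DSS colon it was lower in DIEC (change -0.52 ± 0.14, adjusted p = 0.0074). The rise in F/F held after TMM rescaling (0.55, adjusted p = 0.002). The other 3 calls did not, with -0.14 in DIEC (adjusted p = 0.38), -0.33 for the deletion in DSS colon (adjusted p = 0.1) and -0.69 for the difference (adjusted p = 0.089). The difference was -0.66 by edgeR and by DESeq2, and DESeq2 called it (edgeR adjusted p = 0.099, DESeq2 adjusted p = 0.027). Without the library DIEC DSS 3 the change with DSS in DIEC was -0.34 (adjusted p = 0.055) and that with the deletion in DSS colon -0.47 (adjusted p = 0.026), with a difference of the DSS changes of -0.79 (adjusted p = 0.042). Without DIEC naive 1 the change with DSS in DIEC was -0.35 and not called either. The difference of the 2 DSS changes was not called without F/F naive 2 or 3 (-0.75 each), F/F DSS 1 (-0.81) or DIEC naive 1 (-0.80).

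Jag1, the Jagged ligand, was at 486, 369, 524 and 501 in F/F naive and at 494, 430.4, 437 and 523 in F/F DSS. The DIEC values were 507, 454, 549.5 and 441 without DSS and 364, 277, 284 and 358 with it. The first 3 groups overlapped, and all DIEC DSS libraries lay below every library of those groups. With DSS it fell by 0.61 ± 0.12 in DIEC (adjusted p = 0.00038), while the change in F/F was 0.01 ± 0.12 (95% interval -0.25 to 0.27, adjusted p = 0.96). In DSS colon the DIEC level was lower (change -0.56 ± 0.12, adjusted p = 0.0028). Both calls held after TMM rescaling, with -0.36 (adjusted p = 0.0095) and -0.37 (adjusted p = 0.027), and without DIEC DSS 3, with -0.56 and -0.51. In the authors' deposited table neither was called, at -0.35 with DSS in DIEC (authors' adjusted p = 0.064) and -0.37 between the DSS groups (authors' adjusted p = 0.19). The difference of the 2 DSS changes, -0.62 ± 0.18, missed the threshold (adjusted p = 0.055) and passed it without F/F DSS 2 (-0.66) or DIEC DSS 1 (-0.68).

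Dll4, the other Delta ligand, was called in no comparison. Its F/F libraries ran from 398 to 478 without DSS and from 422 to 538 with it, and its DIEC libraries from 387 to 510.5 and from 350.4 to 514, so that all 4 groups overlapped. Its change with DSS was 0.11 ± 0.12 in F/F (95% interval -0.15 to 0.36) and -0.07 ± 0.12 in DIEC (-0.32 to 0.19), and the latter was 0.19 after TMM rescaling. The gene lies across an opposite-strand neighbour, Gm14207, in the table's annotation, and reads of the pair may not be separated.

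Notch1, the receptor (mm9, chromosome 2, 26313422 to 26359342, minus strand), had the largest change of the 10 genes in 3 of the 5 comparisons. It was at 935, 829.9, 846 and 821 in F/F naive and at 912, 905, 954 and 926 in F/F DSS, where the ranges overlapped. In DIEC naive it was at 828, 679, 756 and 759.5, and in DIEC DSS at 529, 431, 279.7 and 366. Every DIEC DSS library lay below every other library, and DIEC DSS 3 was the lowest of the 16. The group means were 858 ± 52.7, 924 ± 21.5, 756 ± 61.1 and 401 ± 105 (SD, n = 4) in the same order.

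With DSS, Notch1 fell to 0.519 times its naive level in DIEC (log2 change -0.95 ± 0.13, adjusted p = 6.2e-06), while the change in F/F was 0.11 ± 0.13 (95% interval -0.17 to 0.38, adjusted p = 0.54). In DSS colon the DIEC level was 0.424 times that of F/F (log2 change -1.24 ± 0.13, adjusted p = 4.4e-06), and in naive colon the change was -0.18 ± 0.13 (95% interval -0.46 to 0.09, adjusted p = 0.57). The 2 DSS changes differed by -1.05 ± 0.19 (adjusted p = 0.0081). After TMM rescaling the 3 calls stood at -0.69 (adjusted p = 9.6e-05), -1.05 (adjusted p = 1.3e-05) and -0.90 (adjusted p = 0.019). Without DIEC DSS 3 they stood at -0.79, -1.08 and -0.89, all called. In the authors' deposited table Notch1 was lower in DIEC DSS than in F/F DSS by a log2 fold change of -1.02 (adjusted p = 1.1e-07), and it was the only one of the 10 genes called there in that comparison.

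**Figure D3:**
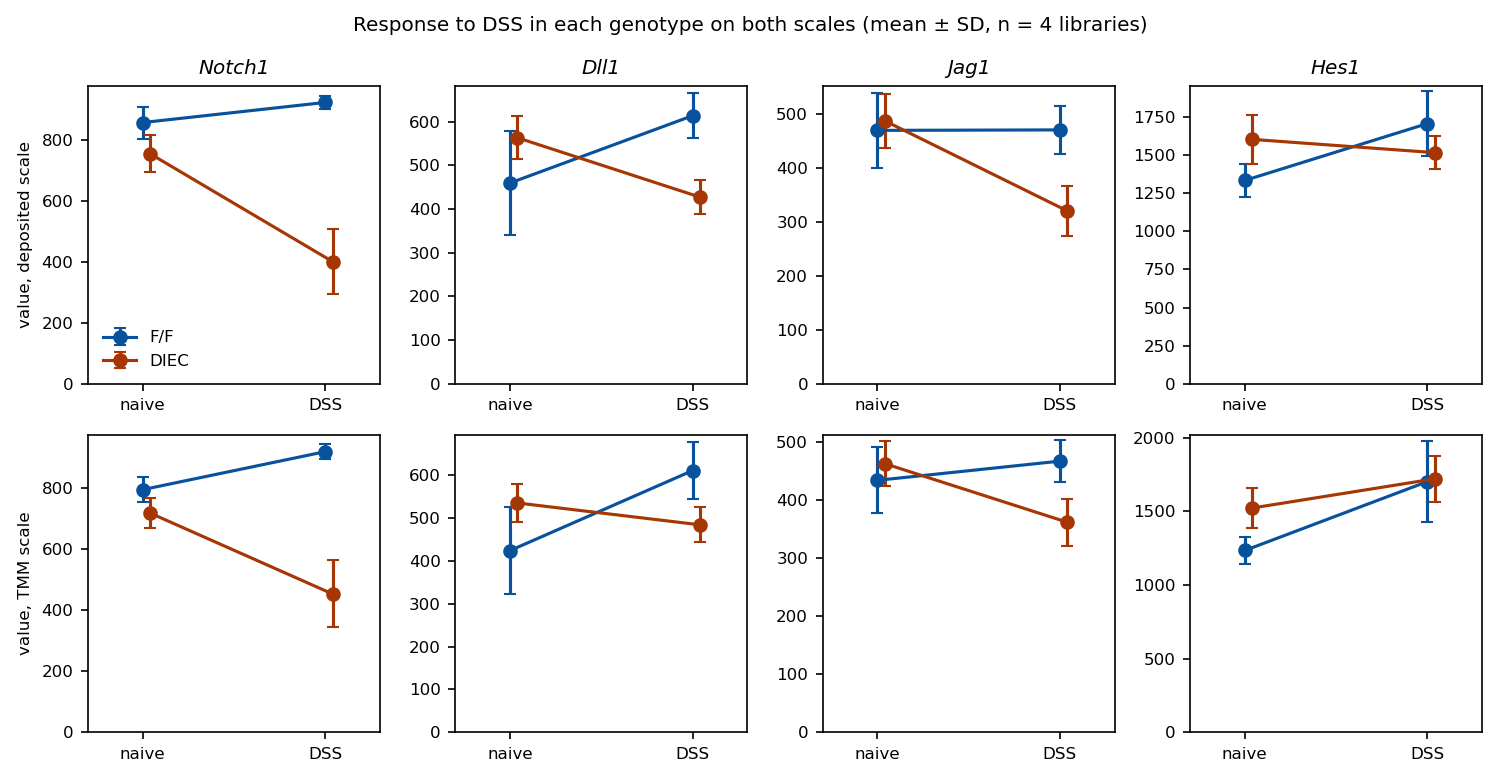
Mean and SD (n = 4 libraries) of Notch1, Dll1, Jag1 and Hes1 without and with DSS in F/F (blue) and DIEC (brown), on the deposited scale (top) and after TMM rescaling (bottom), with every vertical axis from 0. On the deposited scale Notch1 went from 756 to 401 in DIEC and stood at 858 and 924 in F/F, and the slopes of Dll1 and Hes1 in DIEC differ between the 2 scales.

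Markers of other cells that make Notch1 and Jag1 were measured beside them. Of 14 endothelial markers limma called 0 for the deletion in DSS colon, on the deposited scale and after TMM rescaling, with 1 at an unadjusted p under 0.05, 0 by edgeR and 1 by DESeq2. Their summed level was 5132 to 5953 in F/F DSS and 4122 to 5992 in DIEC DSS, lowest in DIEC DSS 3. Of 10 leukocyte markers limma also called 0, with 2 at an unadjusted p under 0.05 and 0 by edgeR and DESeq2, and their sum was 7272 to 9504 and 2904 to 10705, again lowest in DIEC DSS 3. Of all genes limma called 29.3% for the deletion in DSS colon (3.28% higher and 26% lower), and 14% after TMM rescaling. Of 10 crypt stem and dividing cell markers 7 were called lower with the deletion in DSS colon, and 3 after TMM rescaling. EdgeR called 5 of them lower, DESeq2 8, and limma 3 without DIEC DSS 3. Their sums were 2273 to 6612 in F/F DSS and 1813 to 2355 in DIEC DSS. All 10 fell with DSS in both genotypes, on both scales. Of the 14 endothelial markers 4 were called lower with DSS in F/F and 5 in DIEC, and 0 higher. Of the 10 leukocyte markers 3 were called lower in F/F and 4 in DIEC, and 0 higher. After TMM rescaling 1 endothelial marker was lower in each genotype and 3 were higher in DIEC. Of the leukocyte markers 3 were then lower in F/F, and 2 lower and 1 higher in DIEC. After rescaling 45.3% of all genes were called in F/F and 51.3% in DIEC. Of all genes 28.5% were called lower with DSS in F/F and 40% in DIEC, on the deposited scale. No marker on the 3 lists was at 0 in all libraries. The part of crypt cells in the lower Notch1, Jag1 and Dll1 was not tested.

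Hes1, the Notch effector, was at 1455, 1334, 1198 and 1352 in F/F naive and at 1602.5, 2014, 1680.2 and 1534 in F/F DSS. In DIEC it was at 1723, 1377, 1607 and 1710.2 without DSS and at 1593.5, 1412, 1628 and 1436 with it. The F/F DSS libraries all lay above the F/F naive ones, and the DIEC groups overlapped. Hes1 rose by 0.35 ± 0.09 in F/F (adjusted p = 0.0049). In DIEC the change was -0.08 ± 0.09 (95% interval -0.27 to 0.12, adjusted p = 0.52), and 0.18 after TMM rescaling. The difference of the 2 changes was -0.43 ± 0.13 and missed the threshold (adjusted p = 0.072), which it passed without DIEC naive 2 (-0.50). In DSS colon, where Notch1 differed between genotypes, the Hes1 change was -0.17 ± 0.09 (95% interval -0.36 to 0.03, adjusted p = 0.2) and 0.02 after rescaling.

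Atoh1, the factor of secretory commitment, was at 1956, 1555, 1801 and 1852 in F/F naive and at 2031, 1469, 1644 and 1618 in F/F DSS, which overlapped. In DIEC it was at 2137, 2288, 2229 and 1911 without DSS and at 1855, 1421, 1697 and 1820.3 with it, all lower. It fell by 0.34 ± 0.10 with DSS in DIEC (adjusted p = 0.0099), and after TMM rescaling the change was -0.08 (adjusted p = 0.47). Without DIEC DSS 3 it was -0.34 (adjusted p = 0.018). In F/F the change was -0.09 ± 0.10 (95% interval -0.31 to 0.13). With the deletion, the change was 0.26 ± 0.10 in naive colon (95% interval 0.04 to 0.48, adjusted p = 0.25) and 0.01 ± 0.10 in DSS colon (-0.21 to 0.23). Per kilobase, the log2 ratio of Atoh1 to Hes1 was -0.11 ± 0.15 in F/F naive, -0.55 ± 0.33 in F/F DSS, -0.11 ± 0.25 in DIEC naive and -0.37 ± 0.15 in DIEC DSS (SD, n = 4), with overlapping libraries in all 4 groups.

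**Figure D4:**
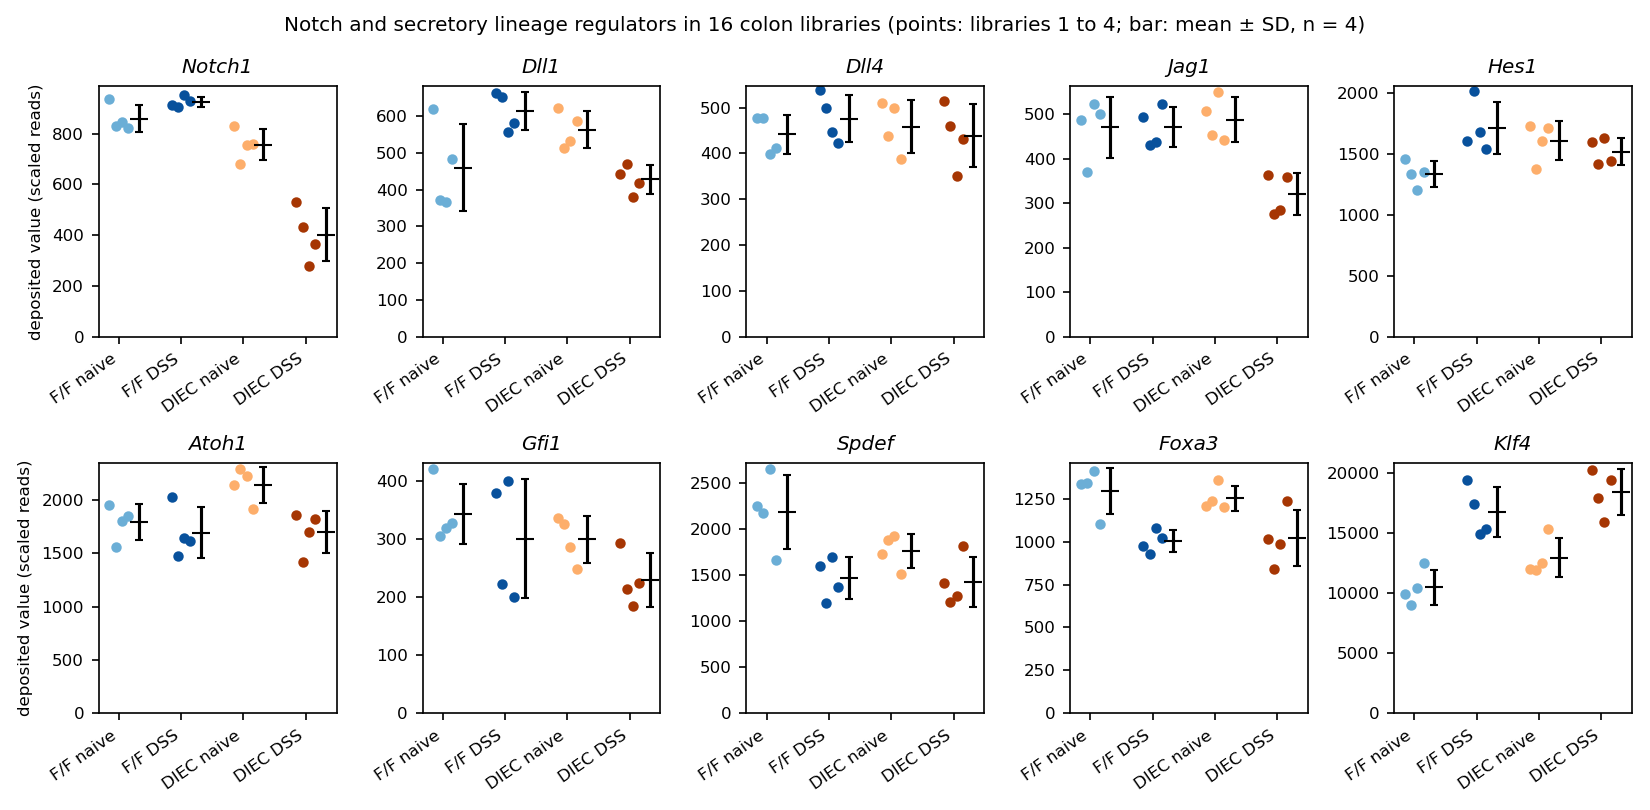
Deposited value of the 10 genes in each of the 16 libraries, with the mean and SD of each group of 4. The 4 DIEC DSS libraries of Notch1 (279.7 to 529) and of Jag1 (277 to 364) lie below all others, and all DSS libraries of Klf4 lie above the naive libraries of the same genotype.

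Gfi1, the repressor that keeps secretory progenitors from the endocrine path, passed no test. Without DSS it ran from 306 to 419.99 in F/F colon and from 249 to 336 in DIEC colon. In F/F DSS its libraries were at 379, 223, 399.7 and 201, 2 within the naive range and 2 below it, and in DIEC DSS at 294, 214, 184.5 and 224. The change with DSS was -0.25 ± 0.20 in F/F (adjusted p = 0.35) and -0.39 ± 0.20 in DIEC (95% interval -0.82 to 0.03, adjusted p = 0.12), and without DIEC DSS 1 the latter was called (-0.52). Its intervals were the widest of the 10 genes.

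Spdef, the ETS factor of goblet cell maturation, was at 2254, 2178, 2653 and 1665 in F/F naive and at 1596, 1199, 1703 and 1371 in F/F DSS. In DIEC it was at 1729, 1879, 1925 and 1514 without DSS and at 1418, 1212, 1275 and 1817 with it. Only F/F naive 4 of its group reached down into the range of F/F DSS. Spdef fell with DSS in F/F by 0.57 ± 0.15 (adjusted p = 0.005), after TMM rescaling by 0.47 (adjusted p = 0.01), and without F/F naive 4 by 0.69. In DIEC the change of -0.31 ± 0.15 missed the threshold (adjusted p = 0.091) and passed it without DIEC DSS 4 (-0.43), and a difference between the genotypes was not called (0.26 ± 0.21, adjusted p = 0.51).

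Foxa3, a forkhead factor of goblet cells, was at 1339.7, 1341, 1411 and 1104 in F/F naive and at 978, 931, 1083 and 1022 in F/F DSS, with no overlap. In DIEC it was at 1211, 1240.2, 1358 and 1201 without DSS and at 1016, 842, 985 and 1239.7 with it, and DIEC DSS 4 reached the naive range. It fell by 0.37 ± 0.10 in F/F (adjusted p = 0.006) and by 0.31 ± 0.10 in DIEC (adjusted p = 0.016). After rescaling the F/F fall was 0.27 (adjusted p = 0.027), and the DIEC change was -0.05 (adjusted p = 0.67). The DIEC call was also lost without DIEC naive 3 (-0.27) or DIEC DSS 2 (-0.22), and kept without DIEC DSS 3 (-0.29, adjusted p = 0.033). The deletion changed Foxa3 by -0.05 ± 0.10 in naive colon and by 0.01 ± 0.10 in DSS colon, neither called. Over the 16 libraries, which share their groups, Spdef and Foxa3 had a Pearson r of 0.91, and 0.87 with the group means taken off. F/F naive 4, the lowest of its group for both, also had the lowest sum of 13 goblet cell products in the group, 623599 against 1143726 to 1482241. Of those 13 products 8 fell and none rose with DSS in F/F, on both scales. In DIEC 6 fell and 2 rose (5 and 3 after rescaling). Agr2, a disulfide isomerase needed for mucin, was among the falls in F/F (-1.12 ± 0.14, adjusted p = 5.4e-06). Muc2, Fcgbp, Zg16, Tff3 and Ern2 were not called in F/F on either scale. The rises in DIEC were those of Fcgbp and Tff3, with Zg16 added after rescaling. With the deletion in DSS colon 2 of the 13 rose and 2 fell (4 and 2 after rescaling). In that comparison 3.28% of all genes were called higher and 26% lower, on the deposited scale. Over all genes 28.5% were called lower and 16.3% higher in F/F, and 40% and 12.3% in DIEC, on the deposited scale.

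Klf4, a zinc finger factor of goblet and surface cells, was at 9957, 9003, 10467 and 12515 in F/F naive and at 19469.7, 17459, 14914 and 15391 in F/F DSS. In DIEC it was at 11999.5, 11924, 12496 and 15377 without DSS and at 20308, 17952, 15943 and 19478 with it. All DSS libraries lay above all naive ones of the same genotype. Klf4 rose 1.61-fold in F/F (log2 change 0.68 ± 0.11, adjusted p = 8.8e-05) and 1.42-fold in DIEC (0.51 ± 0.11, adjusted p = 0.00082). After TMM rescaling the changes were 0.78 and 0.76, both called, and without DIEC DSS 3 the DIEC change was 0.58 (adjusted p = 0.00043). With the deletion its change was 0.31 ± 0.11 in naive colon (adjusted p = 0.2) and 0.13 ± 0.11 in DSS colon (adjusted p = 0.41), the latter called by DESeq2 (0.33). The difference between the genotypes was -0.17 ± 0.16 (95% interval -0.51 to 0.16, adjusted p = 0.57). On the deposited scale DSS gave 16.3% of all genes higher and 28.5% lower in F/F, and 12.3% and 40% in DIEC. Of 10 absorptive markers 3 rose and 3 fell with DSS in F/F and 5 rose and 1 fell in DIEC. After rescaling 4 rose and 1 fell in F/F, the falls of Krt20 and Slc9a3 not being called, and 7 rose and 1 fell in DIEC. Their part in the Klf4 rise was not tested.

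Of 26 other genes that process Notch ligands or receptors, 10 rose and 8 fell with DSS in F/F and 7 rose and 9 fell in DIEC, and after TMM rescaling 15 rose and 6 fell in each. Of all genes 16.3% were called higher and 28.5% lower in F/F, and 12.3% and 40% in DIEC, on the deposited scale. After rescaling 45.3% and 51.3% of all genes were called. Aph1a, a gamma-secretase subunit, rose by 0.73 ± 0.09 in F/F (adjusted p = 6.1e-06) and by 0.67 ± 0.09 in DIEC (adjusted p = 4.2e-06), from 685 ± 72.1 to 1129.3 ± 35.8 in F/F. Poglut1, which adds glucose to Notch, fell by 0.56 ± 0.08 in F/F and by 0.82 ± 0.08 in DIEC. Adam17, a protease that can cut the receptor's outer part, fell by 0.41 ± 0.07 in F/F and was called lower in DIEC too (1652.3 ± 70.0 to 1173.2 ± 77.1).

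With the deletion in DSS colon 1 of the 26 rose and 7 fell, where 3.28% of all genes were called higher and 26% lower. After TMM rescaling 2 of the 26 rose and 3 fell, where 14% of all genes were called. The 3 that fell on both scales were Lfng, the fringe that adds sugars to Notch, Dtx4, a Deltex ubiquitin ligase, and Neurl1b, a Neuralized ubiquitin ligase that acts on Delta ligands. Lfng was at 469.7 ± 45.5 in F/F DSS and 269.9 ± 51.5 in DIEC DSS (change -0.81 ± 0.13, adjusted p = 0.00021). Dtx4 was at 459 ± 82.3 and 221 ± 64.5 (-1.08 ± 0.17, adjusted p = 0.00031). Neurl1b was at 1908.7 ± 83.0 and 1108.4 ± 72.0 (-0.78 ± 0.09, adjusted p = 8.7e-06), and it was the one gene of the list called in naive colon too (-0.47 ± 0.09, adjusted p = 0.0056). Dtx4 was also called in the difference of the 2 DSS changes (-0.98 ± 0.25, adjusted p = 0.038), though not after rescaling (adjusted p = 0.088). Without DIEC DSS 3 the changes with the deletion in DSS colon were -0.68 (Lfng), -0.88 (Dtx4) and -0.82 (Neurl1b), all called, and the Dtx4 difference was -0.78 (adjusted p = 0.04).

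Of the other 5 receptors and ligands, Notch2 rose with DSS in F/F from 715 ± 53.2 to 968 ± 58.0 (0.44 ± 0.12, adjusted p = 0.006) and Dll3 fell from a low 2.71 ± 1.20 to 0.19 ± 0.38. In DIEC, Dll3, Jag2 and Notch3 fell, of which Dll3 alone was called after rescaling, when Notch2 rose (0.50, adjusted p = 0.00083), and none was called lower without DIEC DSS 3 (-0.96, -0.35 and -0.42, adjusted p = 0.05, 0.066 and 0.089). Notch2 was lower with the deletion in DSS colon (-0.39 ± 0.12, adjusted p = 0.021), and not after rescaling (adjusted p = 0.26) or without DIEC DSS 3 (adjusted p = 0.087). Of 20 genes of the nuclear complex and its targets, 3 rose and 4 fell with DSS in F/F and 8 fell in DIEC. Among those that fell was Id2, an inhibitor of bHLH factors (-0.60 ± 0.11 and -0.79 ± 0.11). Olfm4, a stem cell gene, also fell in both, from a low 5.62 ± 3.40 in F/F naive and 12.3 ± 5.68 in DIEC naive to 0 in every DSS library. After rescaling 4 rose and 4 fell in F/F, and 4 rose (Maml1, Spen, Heyl and Sox9) and 6 fell in DIEC, the falls of Kat2a and Id3 not being called. On the deposited scale 16.3% of all genes were called higher and 28.5% lower in F/F, and 12.3% and 40% in DIEC. With the deletion in DSS colon 6 of the 20 fell, where 26% of all genes were called lower. The smallest adjusted p was that of Kat2a, an acetyltransferase (-0.42 ± 0.09, adjusted p = 0.0024). None of the 20 was called there after rescaling, by edgeR or by DESeq2, and limma on the deposited scale had 9 at an unadjusted p under 0.05.

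Of 16 other transcription factors of secretory cells, 2 rose and 5 fell with DSS in F/F, 1 rose and 6 fell in DIEC, and 2 rose and 6 fell with the deletion in DSS colon. After rescaling 3 rose and 5 fell in F/F, 5 rose (Creb3l1, Foxa1, Elf3, Neurod1 and Insm1) and 5 fell in DIEC, and 2 rose and 5 fell with the deletion in DSS colon. The falls of Foxa2 with DSS in DIEC and of Pou2f3 with the deletion were the ones not called after rescaling. On the deposited scale 16.3% of all genes were called higher and 28.5% lower in F/F, and 12.3% and 40% in DIEC. For the deletion in DSS colon the shares were 3.28% and 26%. Rescaling left 45.3%, 51.3% and 14% of all genes called in the 3 comparisons. Elf3, an epithelial ETS factor, rose from 10952.8 ± 172 to 21925.4 ± 2600.3 in F/F and from 12955.7 ± 973 to 28739.1 ± 3039.7 in DIEC. Neurog3, the factor of endocrine progenitors, fell from 30.7 ± 2.93 to 6.02 ± 3.85 in F/F and from 45.0 ± 9.17 to 0.713 ± 0.480 in DIEC. Its DSS changes differed between genotypes by -2.45 ± 0.49 (adjusted p = 0.015, after rescaling 0.027 and without DIEC DSS 3 0.023). In that difference edgeR called 1 of the 16 factors and DESeq2 called 0. The Neurog3 values in DIEC DSS lay between 0 and 1.04, at the floor, so the size of the difference is uncertain. Sox4, a progenitor factor, was at 183 ± 28.8 in F/F DSS and 101 ± 18.5 in DIEC DSS (-0.85 ± 0.14, adjusted p = 0.00038), and Creb3l4 was also lower with the deletion in DSS colon (-0.60 ± 0.12, adjusted p = 0.0013). Both were called after rescaling and without DIEC DSS 3 (-0.80 and -0.68).

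**Figure D5:**
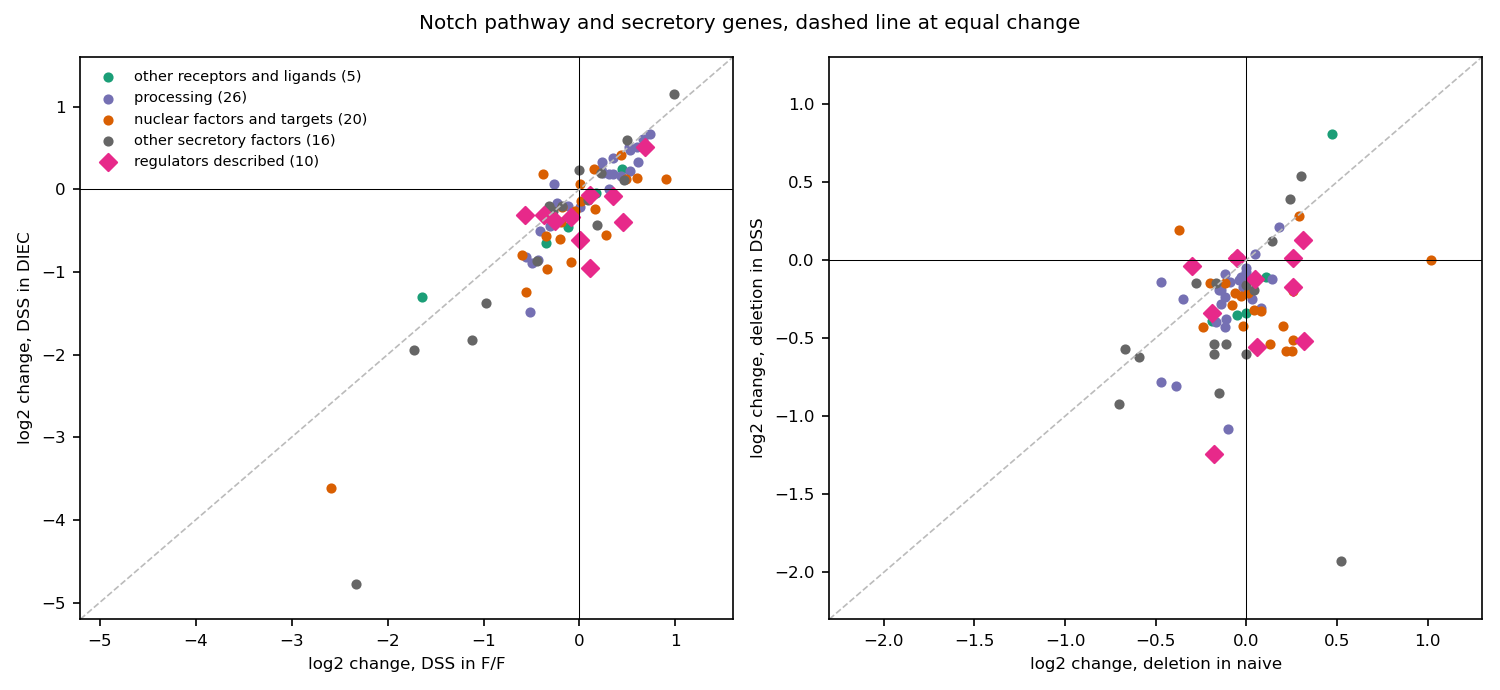
Log2 change (difference of log2(value + 1), deposited scale) of the 10 genes (diamonds) and of the other genes on the Notch and secretory lists (circles), each gene a point: DSS in DIEC against DSS in F/F (left) and the deletion in DSS against the deletion in naive colon (right), with a dashed line at equal change. Among the points below the dashed line on the right are Notch1 (-1.24 against -0.18), Dtx4 (-1.08), Lfng (-0.81) and Neurl1b (-0.78).

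Across the 16 libraries, which share groups, scaling and pools, the likeness of patterns was taken as Pearson's r of log2(value + 1) over 12670 genes with a mean of at least 50. Notch1 was most like Colgalt1 (0.965), Mri1 (0.963) and Nod1 (0.961), and Jag1 most like Nkain1 (0.926), Slc39a14 (0.926) and Ephb4 (0.923). Klf4 was most like Pxn (0.967), Clint1 (0.966) and Llgl2 (0.965), and Spdef most like Foxa3 (0.911). The nearest pattern was that of Id3 for Gfi1 (0.888), Tmem198b for Dll1 (0.883), Chd1 for Atoh1 (0.879), Ppargc1a for Hes1 (0.878) and Sav1 for Dll4 (0.803). Notch1 and Jag1 had an r of 0.82 with each other over the 16 libraries and of 0.33 with the group means taken off.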

How the data were processed

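Whole-colon RNA was made into TruSeq libraries, per the labels' protocols. Reads were handled with bcl2fastq, STAR 2.2.0c and HOMER 4.9, per the submitters' processing notes. The deposited signal values are reads over all exons, divided by 1 factor per library so that each sums to between 26554078 and 26554094. Within 0.01, 100% of the values were whole multiples of 1 read (worth 0.7645 to 1.3305), so reads were recovered for the count tests. The authors' deposited log2 fold changes and p-values come from a tool that the sources used here do not name. Gene positions are those of the table's mm9 annotation, per the file headers, whereas the processing notes name mm10, and promoters are from RefSeq GRCm38.p6.

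The 18267 genes that reached a value of 1 in 4 or more libraries were tested with limma 3.58.1 (R 4.3.3, trend and robust) on log2(value + 1), 1 model over the 16 libraries with 4 group means. "Adjusted p" is limma's unless another source is named. The added 1 makes log2 changes of low genes too small. Labels do not say that pools came from separate cages or days, so p-values measure the spread between these pools. No 2 libraries of the same group agreed within counting error. The 22 alternatives were TMM scaling, no filter, a pseudocount of 0.5, edgeR 4.0.16 and DESeq2 1.42.0 on the recovered reads, the replicate number as a block, and leaving out each of the 16 libraries. EdgeR used the 15695 genes that its own filter kept, and DESeq2 was given all genes of the deposited table. The test was checked on simulated data.

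The 10 genes, the other lists and the motifs were chosen with earlier results of these data known. Named were all 10 genes, Ncor1, from the other lists up to 4 genes with the smallest adjusted p per comparison, and the genes most like each of the 10; counts of few genes are named as well, after their values were seen. A gene that this rule gives is not reported here.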

Additional observations from a re-analysis of the deposited data

Results flagged for a closer look

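Klf4 in the library DIEC naive 4 stood apart from the other 3 of its group, at 15377 against 11924 to 12496. Of 40 sets of gene and group looked at, this was the only one past Dixon's 95% critical value for 4 samples, where chance flags about 1 in 20. Without that library the Klf4 rise with DSS in DIEC was 0.60 in place of 0.51.

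Notch1 responded to DSS differently in the 2 genotypes, by the test of the difference itself (-1.05 ± 0.19, limma adjusted p = 0.0081), with all 4 DIEC DSS libraries below all 4 DIEC naive ones. For Dll1 the difference was -0.84 ± 0.19 (limma adjusted p = 0.026), with a rise in F/F and a fall in DIEC on the deposited scale. It missed the threshold after TMM rescaling and by edgeR, and was called by DESeq2 (-0.66, DESeq2 adjusted p = 0.027).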

How the results depend on the processing

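Notch1 kept its 3 calls, Jag1 its 2, Klf4 its 2 and the other genes called with DSS in F/F theirs under all 22 alternatives. The authors' deposited tests, which are not among the 22, called neither Jag1 change, nor Foxa3 with DSS in F/F (authors' adjusted p = 0.059). Of the 10 genes, those called with DSS in DIEC numbered 6 and were 3 under TMM rescaling, edgeR and DESeq2, and those called in the difference of DSS changes numbered 2 and were 1 under TMM and edgeR (1 to 3 with 1 library left out). Leaving out 1 library gave 0 to 1 of the 10 genes for the deletion in naive colon (Dll1 without F/F naive 1). Over all genes, the deletion in naive colon gave 408 calls, 819 by DESeq2 and 233 to 470 with 1 library left out; the deletion in DSS colon 5346, and 2568 (TMM), 2647 (edgeR) and 3068 (DESeq2); the difference 664, 117 (TMM) and 126 (edgeR), and 144 (without DIEC naive 1) to 1662 (without F/F DSS 2).

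Changes that turned sign were all uncalled. Under TMM, edgeR and DESeq2 they were Atoh1 with DSS in F/F (0.01 in each), Hes1 (0.18, 0.17, 0.18) and Dll4 (0.19, 0.19, 0.20) with DSS in DIEC, and Hes1 (0.02, 0.02, 0.03), Dll4 (0.07, 0.07, 0.08) and Spdef (0.15, 0.16, 0.16) for the deletion in DSS colon; Gfi1 in the difference was 0.00 under TMM. With 1 library left out, the ranges of those that turned were -0.10 to 0.07 for Jag1 with DSS in F/F, -0.15 to 0.04 for Dll4 with DSS in DIEC, 0.00 to 0.13 for Dll4 and -0.05 to 0.12 for Jag1 with the deletion in naive colon, -0.05 to 0.10 (Atoh1), -0.16 to 0.03 (Spdef) and -0.09 to 0.10 (Foxa3) with it in DSS colon, and -0.32 to 0.01 (Gfi1) and -0.04 to 0.15 (Foxa3) in the difference. TMM moves the median gene upward in each comparison; other causes were not tested.

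The labels do not say whether same-numbered libraries share more than the number. Of 24 pairs 2 had deviations correlated over 0.1, with a range over the 24 of -0.15 to 0.23. Those were F/F DSS 1 with DIEC DSS 1 (0.23) and F/F DSS 2 with DIEC DSS 2 (0.21). In 7 of the 24 a library was most like its own number in the other group. With the number as a block the difference of DSS changes gave 1247 genes and 3 of the 10, Jag1 added, and no other call among the 10 changed.

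Pools of 3 mice, 4 libraries a group and whole tissue limit what these values show: the spread is between pools, and cell numbers were not measured.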
